A study of Mus musculus with 12 samples.

Results

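The 6 adrenals of the βCat-GOF group were compared with each other, gene by gene, and not with controls. They are 6 of the 12 libraries of the series, and 13676 of the 39017 genes in the count table had at least 10 counts in all 6 and were kept. The study sequenced RNA of whole adrenals, trimmed of adherent fat, from control (Ctrl) mice with the genotype ASCre/+ and from βCat-GOF mice with the genotype bigenic ASCre/+ ::Ctnnb1fl(ex3)/+, to learn how β-catenin changes the shape of the zona glomerulosa (zG). All 6 mice described here were females, 10 to 11 weeks old, on a mixed sv129-C57Bl/6 background, with 1 library per mouse. The AS locus is Cyp11b2, so Cre is made in zG cells that express Cyp11b2, and it removes exon 3 from the floxed Ctnnb1 allele, which leaves the other allele intact and passes to the descendants of these cells. A whole gland mixes the zG with the zona fasciculata (zF), the X zone, the medulla, the capsule and vessels, and a change in the number of cells of a type cannot be told apart from a change in RNA per cell.

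In the Wnt pathway, a ligand bound to Frizzled and LRP receptors stops the destruction of β-catenin, which enters the nucleus and works with TCF/LEF factors to switch on target genes. Nkd1 is such a target and a feedback inhibitor, and its level is commonly read as a measure of the Wnt response, which in the adrenal is highest in the zG. Akr1b7 encodes an aldo-keto reductase of zF cells that is induced by the pituitary hormone ACTH through cAMP. A slope below is the log2 change of a gene for each doubling of Nkd1 or of Akr1b7 over the mice, with its standard error, fitted on counts with edgeR's quasi-likelihood test, and a gene was called when its adjusted p (Benjamini-Hochberg over 13675 genes) was under 0.05.

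Totals ran from 13484675 counts (mouse 1369-8) to 24951480 (mouse 1369-4), so that 3 counts were worth, by total counts alone, 0.12 to 0.222 CPM (counts scaled to a library size of 1000000). No pair of libraries agreed within sampling noise. The pair with the similar labels 1369-2ear and 1369-2 differed by a chi-square of 45.85 per degree of freedom, against 39.72 to 159.7 over all 15 pairs. The labels do not say whether mice shared a litter or a day, and 1387-8 is the only one with another leading number. The defining steroidogenic genes of the adrenal cortex were abundant in every library, with a summed level of 51230 to 106700 CPM over 14 genes. Markers of skeletal muscle summed to 1.432 to 2.247 CPM, and those of kidney to at most 1.001 CPM. The 4 liver markers Alb, Apoa1, Ttr and Serpina1a summed to 69.43 CPM in 1369-8 and to between 0.2865 and 1.21 CPM in the other 5 libraries, with 760 counts of Alb in 1369-8. None of these 4 genes passed the count minimum in all 6, and their part in any result was not tested.

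The promoters of Akr1b7 and of 3 genes that fell with Akr1b7 (Fos, Cyr61 and Btg2, described below) are shown because Akr1b7 is 1 of the 2 genes that the others were set against and the other 3 are among the 4 called genes with the steepest falling slopes on it. Each line gives the 250 bases before the RefSeq start on GRCm38.p6, 5′ to 3′ on the strand of the gene. In Akr1b7 the capitals mark matches to the SF-1 letters AAGGTCA and to the TCF/LEF letters, which are CAAAG after 2 bases that are each A or T, on either strand. In the other 3 they mark the half-site TGACGT of the cAMP response element, on either strand, a motif added after the sequences were seen. The Akr1b7 window is chr6:34412112-34412361, plus strand, that of Fos is chr12:85473640-85473889, plus strand, that of Cyr61 (listed by RefSeq as Ccn1) is chr3:145649986-145650235, minus strand, and that of Btg2 is chr1:134079156-134079405, minus strand.
Akr1b7: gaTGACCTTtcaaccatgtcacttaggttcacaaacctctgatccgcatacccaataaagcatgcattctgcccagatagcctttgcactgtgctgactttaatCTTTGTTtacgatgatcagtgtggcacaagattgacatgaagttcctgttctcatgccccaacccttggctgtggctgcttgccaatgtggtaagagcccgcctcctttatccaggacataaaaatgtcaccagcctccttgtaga
Fos: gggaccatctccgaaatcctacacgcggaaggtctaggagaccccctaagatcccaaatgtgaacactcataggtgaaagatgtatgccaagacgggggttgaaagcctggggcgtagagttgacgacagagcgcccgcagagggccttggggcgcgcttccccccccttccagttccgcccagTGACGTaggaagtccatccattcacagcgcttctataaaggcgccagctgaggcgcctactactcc
Cyr61: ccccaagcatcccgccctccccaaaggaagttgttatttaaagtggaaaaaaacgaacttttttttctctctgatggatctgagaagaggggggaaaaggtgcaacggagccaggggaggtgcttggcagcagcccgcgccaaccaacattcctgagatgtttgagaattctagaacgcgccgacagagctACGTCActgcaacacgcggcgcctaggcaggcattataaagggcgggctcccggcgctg
Btg2: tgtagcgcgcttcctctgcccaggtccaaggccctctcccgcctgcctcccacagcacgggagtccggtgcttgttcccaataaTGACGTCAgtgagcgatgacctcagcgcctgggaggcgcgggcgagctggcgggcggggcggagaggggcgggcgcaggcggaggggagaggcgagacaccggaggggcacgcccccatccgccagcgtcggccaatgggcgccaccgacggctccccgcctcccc

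Akr1b7 holds 1 SF-1 match, between 248 and 242 bases before the start, and 1 TCF/LEF match, between 146 and 140 bases before it. The cAMP half-site lies 66 to 61 bases before the start in Fos and 59 to 54 bases before it in Cyr61. In Btg2 the pair of half-sites overlap and together form the full palindrome TGACGTCA. Among the 10171 kept genes with a promoter in the table, 12.1% held a TCF/LEF match, 3.52% an SF-1 match and 11.5% the half-site, against 16.8%, 4.7% and 7.29% of all 27025 genes of the table. The Nkd1 window, chr8:88527383-88527632, plus strand, holds no TCF/LEF or SF-1 match. It lies inside the Nkd1 gene span given below, which starts at 88521354, and the bases before that start were not searched. None of the 3 windows of Fos, Cyr61 and Btg2 holds the serum response motif CArG, found by name in 1.37% of kept genes. Bases farther before the starts were not searched, so this absence holds for the windows alone and not for the genes. Egr1 also fell steeply with Akr1b7, but its window is not shown and its matches are not given. Among genes falling with Akr1b7 the half-site was in 20.6% of 34 promoters at an adjusted p under 0.05 and in 8.66% of 462 at 0.1, with no test. Both sets include Fos, Cyr61 and Btg2, whose sequences were seen before the motif was added. Their inclusion raises the share, most of all that of the 34, and so it cannot be read as an excess. A match of letters is a description and not a binding site.

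Most genes differed little between the 6 mice. The SD of log2 CPM was 0.266 at the median gene, against a counting noise of 0.0638 at the median, and 176 genes (1.29%) had an SD above 1. Values below are in the fixed order of falling Nkd1, which is 1369-2ear, 1369-2, 1387-8, 1369-8, 1369-4 and 1369-3. The 20 most variable genes fell into a few patterns over these mice. The last of them, Padi2, had an SD of 1.75, and the next gene in order stood at 1.739.

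The first pattern is a group of genes lowest in 1369-2ear. Apoc1, an apolipoprotein, varied most of all genes, at 5.48, 84.1, 1107, 369.6, 909 and 562 CPM. Akr1c18, the 20α-hydroxysteroid dehydrogenase that marks the X zone, a cortical layer next to the medulla that persists in young females, stood at 104, 2971, 3140.4, 899, 5727 and 3610.0 CPM. Pik3c2g, a lipid kinase also used as an X zone marker, stood at 5.13, 226, 134, 51.5, 378 and 285 CPM. In 1369-2ear both X zone markers were far below the other 5 mice, and 1369-8 was the next lowest. Spp1 (osteopontin, a secreted phosphoprotein) followed the same order at the low end, at 5.87, 199, 253, 130.3, 497 and 166 CPM. Kng2 (a kininogen) ranged over 1.16 to 62.0 CPM and Omp (olfactory marker protein) over 0.540 to 47.6 CPM, and both were lowest in 1369-2ear and highest in 1369-4. The other listed X zone gene, Thrb, a thyroid hormone receptor that other cells also use, varied much less, at 55.9 to 117 CPM.

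A second pattern was shared by genes best known from liver metabolism and blood pressure control. Tdo2, which starts the breakdown of tryptophan, stood at 0.888, 3.69, 28.8, 2.45, 182 and 5.70 CPM. Agt, which encodes angiotensinogen, stood at 2.16, 6.99, 55.9, 6.98, 141 and 9.61 CPM. Ces1f, a carboxylesterase, stood at 1.43, 3.25, 36.3, 6.14, 46.2 and 5.48 CPM. All 3 were highest in 1369-4, followed by 1387-8, and all 3 were lowest in 1369-2ear. The 4 liver markers were highest in 1369-8, and whether liver tissue had a part in the levels of these 3 genes was not tested. Bhmt, a betaine methyltransferase, was instead highest in 1369-2 (35.4 CPM) and 1369-4 (25.5 CPM) and at most 8.23 CPM in the other 4.

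A further pattern held genes that respond quickly to stimuli. Nr4a1, an orphan nuclear receptor induced by ACTH and angiotensin II, stood at 475, 1489, 993, 40.7, 301 and 82.9 CPM. Its relative Nr4a2 stood at 36.4, 263, 95.1, 6.37, 11.9 and 9.28 CPM, and Sik1, a kinase induced by cAMP, stood at 46.5, 206, 85.5, 7.59, 36.2 and 10.2 CPM. All 3 were highest in 1369-2, next highest in 1387-8 and lowest in 1369-8. Fos, a subunit of the AP-1 transcription factor, differed from them in 1387-8 and stood at 94.4, 41.9, 7.11, 2.30, 6.58 and 6.71 CPM. Fos was far higher in 1369-2ear and 1369-2 than in the other 4.

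The remaining variable genes were mostly set by 1 or 2 mice. Hsd3b6, the 3β-hydroxysteroid dehydrogenase isoform of the zG, stood at 44.0, 71.9, 252, 108, 4.55 and 90.6 CPM, with 1369-4 far below the rest. Tpm3-rs7 stood at 1.55 CPM in 1387-8 and between 29.8 and 62.6 CPM in the others. It matches Tpm3 over 98.1% of its length at 95% identity or more, so its counts are uncertain. The ribosomal RNA gene n-R5-8s1, part of a repeated family, stood at 580.2 CPM in 1369-4 and at most 15.8 CPM elsewhere. Rec8, a meiotic cohesin subunit, was highest in 1369-2 (38.1 CPM) and 1369-8 (28.4 CPM). Padi2 (a peptidylarginine deiminase) ranged over 3.05 to 47.9 CPM and Ssu2 over 2.01 to 55.5 CPM, both lowest in 1369-2ear. Of the 20 genes, 11 stayed among the 20 most variable without 1369-2ear and between 14 and 19 without any other single mouse. With a minimum of 100 counts in all 6, which 10180 genes passed, 6 stayed.

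**Figure D1:**
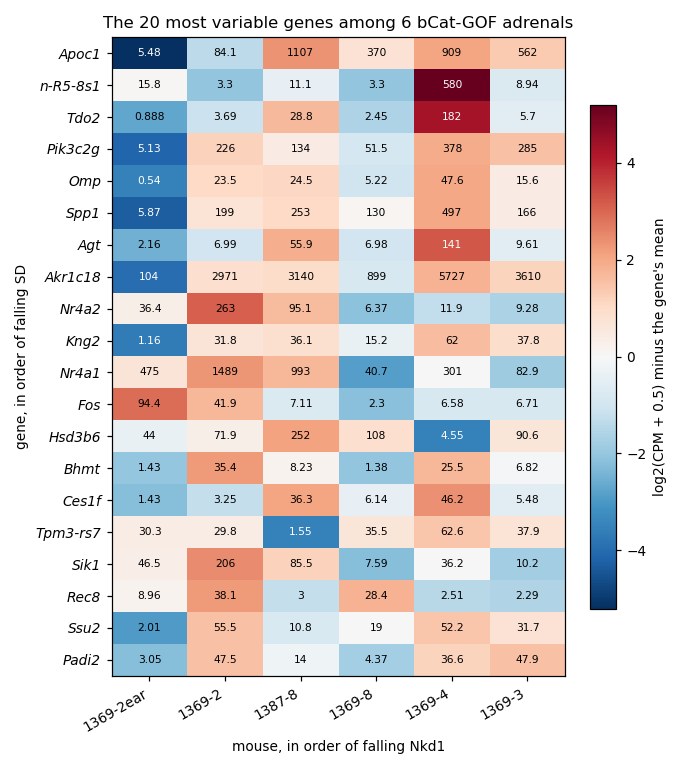
Heat map of the 20 genes with the largest SD of log2 CPM, rows in order of falling SD and the 6 βCat-GOF mice in order of falling Nkd1. Colour is log2(CPM + 0.5) minus the gene's mean (red high, blue low) and each cell prints the CPM. The mouse 1369-2ear is blue for Apoc1, Akr1c18, Pik3c2g, Spp1, Omp and Kng2, and 1369-4 is red for n-R5-8s1, Tdo2 and Agt.

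The count minimum in all 6 leaves out genes that are nearly silent in a single mouse. Fosb, an AP-1 subunit, had 8 counts in its lowest library and 1703 in its highest, and so it was not among the 13676 genes. By Dixon's criterion, 798 genes (5.84%) had 1 mouse far from the other 5, and chance flags about 1 in 20 groups. That mouse was 1369-8 for 452 of them, 1369-4 for 115, 1369-2ear for 104, and another mouse for the rest.

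Nkd1 (chromosome 8, 88521354 to 88594884, plus strand in GRCm38, as for all positions here) stood at 189, 175, 129, 99.8, 74.0 and 64.7 CPM, a spread of 2.92-fold. Akr1b7 (chromosome 6, 34412334 to 34423142, plus strand) stood at 1309.9, 2768, 7155, 8539, 6845 and 10043 CPM, a spread of 7.67-fold. A transcript of Gm13857 on the opposite strand overlaps 27.2% of Akr1b7 exons, and strand is not known to have been used in counting. The mice with the most Nkd1, 1369-2ear and 1369-2, had the least Akr1b7, and 1369-3 had the least Nkd1 and the most Akr1b7. Over the 6 mice the log2 levels had Pearson's r = -0.849 (exact permutation test, two-sided, p = 0.0236, adjusted over 9 relations 0.0303) and Spearman's rho = -0.829 (exact p = 0.0583, adjusted 0.105). Without 1369-3 and 1369-2ear, the 2 mice farthest from the median of Nkd1, r was -0.746. Leaving out 1 mouse at a time gave r between -0.919 and -0.818, with an exact p of 0.05 or more in 5 of 6 cases. The p was 0.0583 without 1369-2ear, 0.05 without 1369-2, 0.0583 without 1369-4, 0.1 without 1369-8 and 0.1 without 1369-3.

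The axis of Nkd1 was also the main axis of all genes. The first principal component (42.6% of variance) separated them, with 1369-2ear at a score of -42.9 and 1369-2 at -27.6, 1387-8 near the middle at 2.64, and the other 3 between 17.4 and 28.8. It correlated with Nkd1 at r = -0.939 (exact p = 0.00694, adjusted 0.0208) and rho = -0.943 (exact p = 0.0167, adjusted 0.0501), and at -0.976 without 1369-3 and 1369-2ear. With Akr1b7 it correlated at r = 0.941 (exact p = 0.0181, adjusted 0.0272) and rho = 0.657 (exact p = 0.175, adjusted 0.197), but at r = 0.148 without 1369-2ear and 1369-2, so that relation rests on these mice. Fos, Cyr61, Acan and Junb weighed most at its negative end, and Apoc1, Tdo2, Spp1 and Pik3c2g at its positive end. The second component (23.7%) set 1369-8 at 37.9 against scores of 7.497 or less in the rest.

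Measures of the libraries lay along the same axis. The 10 most abundant genes held 10.27%, 10.98% and 11.34% of counts in the 3 mice with the most Nkd1 and 13.64%, 13.99% and 14.33% in the other 3, and because these shares form 2 separate clusters no correlation is given for them. The TMM scaling factor rose with Nkd1 at r = 0.908 (exact p = 0.00556, adjusted 0.0208) and rho = 0.943 (exact p = 0.0167, adjusted 0.0501). Total counts had r = 0.137 with Nkd1 (exact p = 0.829, adjusted 0.829). For Akr1b7, r was -0.937 with the TMM factor (exact p = 0.0167, adjusted 0.0272) and -0.421 with total counts (exact p = 0.418, adjusted 0.47). Without 1369-2ear and 1369-2 these were -0.0973 and -0.556. The part of library composition in the slopes was not tested apart from the scalings given with each result.

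**Figure D2:**
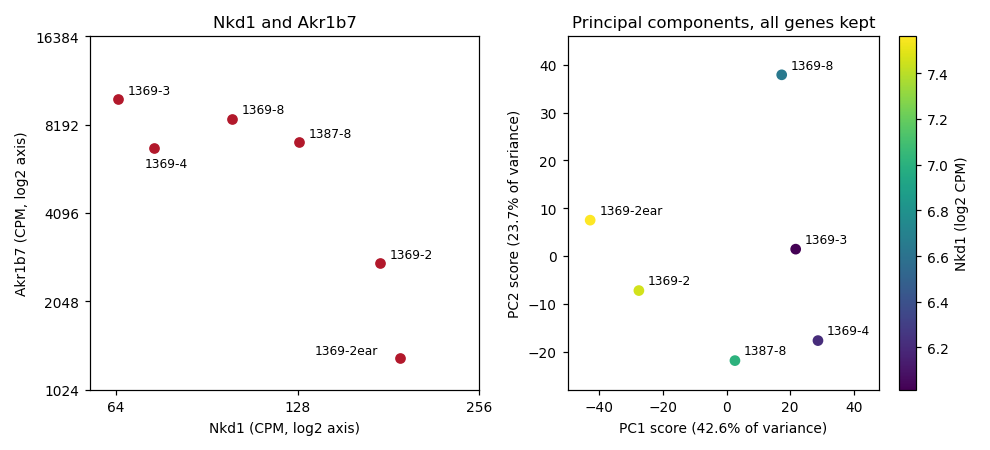
Left, Akr1b7 against Nkd1 in each of the 6 βCat-GOF mice, both in CPM on log2 axes. Right, scores of the same mice on the first 2 principal components of all 13676 genes, coloured by log2 Nkd1. The mice 1369-2ear and 1369-2 lie apart at high Nkd1, low Akr1b7 and a negative first component, and 1369-8 lies apart on the second.

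With Nkd1, 8 of 13675 genes rose (0.0585%) and 1 fell (0.00731%), and both counts depend on the mice and on the scaling. The 3 steepest rising genes were Acan, Cyr61 and Tnc, which encode proteins of the extracellular matrix. Acan, the proteoglycan aggrecan, stood at 9.46, 9.96, 2.42, 1.69, 0.952 and 0.950 CPM (slope 2.41 ± 0.27, SE, adjusted p = 0.0451). Cyr61, a secreted matrix protein and early response gene, stood at 52.4, 30.1, 12.8, 4.99, 4.89 and 4.53 CPM (slope 2.28 ± 0.27, adjusted p = 0.0451), in the same order over the 6 mice as Nkd1. Tnc, the matrix protein tenascin-C, stood at 270.1, 231, 181, 99.1, 56.9 and 70.7 CPM (slope 1.41 ± 0.15, adjusted p = 0.0451). In all 3 genes 1369-2ear and 1369-2 were the highest, 1387-8 came next, and the remaining 3 were low.

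The other 5 rising genes had slopes near 1. Daam2, a formin that links Wnt signals to actin, stood at 129.8, 134, 76.5, 60.9, 44.0 and 50.9 CPM (slope 1.02 ± 0.13). Kazn, a protein of cell junctions, had a slope of 1.02 ± 0.12, and Cux2, a homeobox transcription factor, one of 1.09 ± 0.14. Ggt5, a γ-glutamyltransferase, had a slope of 1.14 ± 0.13 and the rank order of Nkd1, and Snhg11, a host gene of small nucleolar RNAs, a slope of 1.27 ± 0.16. Their adjusted p ran from 0.0451 to 0.0498. The 1 falling gene, Mpp7, a scaffold protein of cell junctions, stood at 16.9, 15.4, 19.3, 39.0, 60.0 and 66.3 CPM (slope -1.44 ± 0.15, adjusted p = 0.0451). Its binding partner Dlg1 had a slope of -0.58 ± 0.10 and the exact opposite rank order of Nkd1, but was not called (adjusted p = 0.0559).

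In all 9 called genes 1369-2ear and 1369-2 lay together beyond the other 4 mice, as they did in 20.3% of all genes on the high side and 17.3% on the low side. Over the other 4 mice alone, all 9 kept their sign, at 1.47 for Acan, 1.44 for Cyr61, 1.49 for Tnc, 0.69 for Daam2 and -1.80 for Mpp7, and none was called. None of the 9 was called without 1369-2ear, 1369-2, 1369-4, 1387-8 or 1369-3, while all 9 were called without 1369-8, where 131 genes rose and 86 fell. With DESeq2's size factors in edgeR none was called (1734 rising and 1353 falling at an unadjusted p under 0.05), and with DESeq2's own Wald test 719 rose (5.26%) and 487 fell (3.56%), these 9 among them. At an unadjusted p under 0.05 edgeR had 1881 genes rising (13.8%) and 1223 falling (8.94%), which are the shares to read the list counts below against. With no scaling factor, 1128 rose and 74 fell and the slope of the median gene moved from 0.0201 to 0.152.

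Many more genes lay close to the threshold. At an adjusted p under 0.1, 524 genes (3.83%) rose and 217 (1.59%) fell. Of all genes, 72 (0.527%) had the rank order of Nkd1 in all 6 mice and 73 (0.534%) the opposite order. Among the genes with the smallest p that were not called, Wnt4, the Wnt ligand of the zG, stood at 712, 615, 501, 372, 335 and 307 CPM, the rank order of Nkd1 (slope 0.77 ± 0.11, adjusted p = 0.0559). Mst1r, a receptor tyrosine kinase, had a slope of 1.22 ± 0.18, Phlda1, an early response gene, 1.08 ± 0.15, and Rgs1, a regulator of G proteins, 1.52 ± 0.21 (adjusted p = 0.0559 for each). On the falling side Slc25a17, a peroxisomal transporter, had a slope of -0.96 ± 0.13, Pdlim5, a protein of actin fibres, -0.90 ± 0.13, Cobll1 -0.72 ± 0.11 and Mcfd2, a cargo receptor of the secretory path, -0.67 ± 0.11 (adjusted p = 0.0559 for each).

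Wnt target genes leaned with Nkd1, though none of those kept passed the test. Of 17 listed targets 14 were kept (Wif1, Dkk1 and Dkk4 were too low), 13 had a positive slope, and the median was 0.571 against 0.0201 over all genes. None was called by edgeR at 0.05. At an adjusted p under 0.1, 6 rose and 1 fell, at an unadjusted p under 0.05, 8 rose and 1 fell, and DESeq2's test called 7 rising and 1 falling. Over all genes the rising shares were 3.83% at an adjusted p under 0.1, 13.8% at an unadjusted p under 0.05 and 5.26% by DESeq2. The falling shares were 1.59%, 8.94% and 3.56%. Notum, a secreted enzyme that inactivates Wnt ligands, stood at 30.1, 21.6, 19.0, 17.4, 10.2 and 11.0 CPM (slope 0.89 ± 0.15, adjusted p = 0.0583). Lef1, a transcription factor that pairs with β-catenin, stood at 24.2, 24.9, 18.6, 13.3, 9.83 and 10.6 CPM (slope 0.90 ± 0.14, adjusted p = 0.0559). Axin2, the classical feedback target, stood at 89.1, 60.4, 52.9, 52.9, 38.0 and 46.3 CPM, with a slope of 0.56 ± 0.14. Apcdd1, a secreted or membrane Wnt inhibitor, ranged over 31.7 to 90.6 CPM (slope 0.83), the stem cell receptor Lgr5 over 23.1 to 56.1 CPM (slope 0.66) and the cell cycle gene Ccnd1 over 179.6 to 398 CPM (slope 0.59).

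Cd44, a hyaluronan receptor, had a slope of the opposite sign, at 57.9, 47.0, 115, 176, 156 and 266 CPM (slope -1.43 ± 0.20, adjusted p = 0.0559). Tcf7 (40.9 to 59.9 CPM), Rnf43 (11.1 to 16.6 CPM), Myc (33.2 to 57.6 CPM) and Tnfrsf19 (155 to 189 CPM) had slopes of 0.18, 0.04, 0.09 and 0.15. Znrf3, a ubiquitin ligase that removes Frizzled receptors, had a slope of 0.58, Nkd2 of 0.78 and Sp5 of 0.46, and none of these was called. Over the 4 mice other than 1369-2ear and 1369-2, the slope was 0.94 for Notum, 0.88 for Lef1, 0.33 for Axin2, -0.99 for Cd44, -0.16 for Rnf43 and -0.19 for Myc. Opposite transcripts overlap 29.4% of Notum exons and 23.4% of Ccnd1 exons.

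The kept Wnt components had a median SD of 0.288 on the log2 scale, and the targets one of 0.45. These components are ligands, secreted R-spondins, genes for ligand secretion, receptors, β-catenin with its destruction complex, and TCF factors. Of 26 listed components 25 were kept, 18 had a positive slope and the median was 0.221, with none called by edgeR (7 rising and 1 falling at an unadjusted p under 0.05, and 4 rising by DESeq2). Over all genes 13.8% rose at that unadjusted p and 5.26% by DESeq2. Ctnnb1, the gene that carries the deletion, lay within 944 to 1092 CPM, with an SD of 0.07, and was lowest in 1387-8. Counts over the whole gene do not show the loss of exon 3. Of 13 listed genes of the non-canonical branch, which works through cell polarity and calcium, 12 had a positive slope (median 0.601). Daam2 was called and 5 rose at 0.1, against 3.83% of all genes. Nfatc4, a calcium-regulated transcription factor, stood at 85.7, 75.6, 38.3, 35.0, 27.5 and 29.7 CPM (slope 1.03 ± 0.15, adjusted p = 0.0559), and the receptor Ror2 ranged over 9.13 to 21.9 CPM (slope 0.79).

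Genes of the zG leaned the same way. Of 15 listed genes 14 were kept (Oprk1 was too low), 12 had a positive slope and the median was 0.718. None was called by edgeR at 0.05. At 0.1, 6 rose, against 3.83% of all genes. At an unadjusted p under 0.05, 9 rose and 1 fell, against 13.8% and 8.94% of all genes. DESeq2 called 8 rising, against 5.26% of all genes. Cyp11b2, aldosterone synthase and the locus of Cre, stood at 334, 454, 157, 121, 99.5 and 175 CPM (slope 1.01 ± 0.28, adjusted p = 0.104), highest in 1369-2 and 1369-2ear, and its slope over the other 4 mice was 0.0024. The T-type calcium channel Cacna1h stood at 269.7, 274, 178, 117, 91.5 and 122 CPM (slope 0.95 ± 0.16) and the potassium channel Kcnk9, which sets the resting potential of zG cells, at 93.8, 89.4, 49.9, 27.5, 27.5 and 35.7 CPM (slope 1.09 ± 0.20). The calcium sensor Vsnl1 ranged over 80.3 to 172 CPM, the morphogen Shh over 24.9 to 97.2 CPM and the adaptor Dab2 over 805 to 1569 CPM, with slopes of 0.67, 0.90 and 0.43. The angiotensin receptor Agtr1a had a negative slope (-0.40), and Agtr1b a positive one (0.36), and neither was called. On Akr1b7, 13 of the 14 Wnt targets and 11 of the 14 zG genes had a negative slope (medians -0.304 and -0.374), and of both lists edgeR called only Cacna1d at 0.05. At an unadjusted p under 0.05, 8 Wnt targets and 9 zG genes fell and 1 of each list rose, against 13.2% and 11% of all genes. DESeq2 called 7 Wnt targets and 9 zG genes falling, against 4.95% of all genes. It called 1 Wnt target rising, against 5.73%.

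No listed gene for epithelial rosettes and junctions was called with Nkd1 by edgeR at 0.05, and 3 rose at 0.1, against 3.83% of all genes. Fgfr2, a receptor for fibroblast growth factors, stood at 310.4, 344, 312, 384, 323 and 312 CPM, an SD of 0.12, below that of the median gene. Shroom3, which drives apical constriction, stood at 9.50, 11.4, 8.76, 10.6, 6.10 and 4.69 CPM (slope 0.63 ± 0.22, adjusted p = 0.149), and an opposite transcript overlaps 24.9% of its exons. Of 18 kept genes for rosettes and junctions, 14 had a positive slope (median 0.269) and none was called with Nkd1 by edgeR (6 rising at an unadjusted p under 0.05, where 13.8% of all genes rose, and 3 by DESeq2, where 5.26% did). Ajuba, a LIM protein of adherens junctions, stood at 136, 133, 84.7, 73.5, 78.7 and 71.1 CPM, and Sulf1, which edits heparan sulfate, at 144, 123, 88.3, 64.5, 77.4 and 70.9 CPM. Their slopes on Nkd1 were 0.605 and 0.627 (edgeR, adjusted p = 0.0729 and 0.0785). Both genes fell with Akr1b7, at slopes of -0.36 ± 0.06 and -0.39 ± 0.06 (adjusted p = 0.0486 for both).

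With Akr1b7, 31 of 13675 genes rose (0.227%) and 47 fell (0.344%). At an unadjusted p under 0.05, 1500 rose (11%) and 1810 fell (13.2%), and DESeq2's test called 783 rising (5.73%) and 677 falling (4.95%). The falling side was led by early response genes, which cells switch on within minutes of a stimulus. Fos (chromosome 12, 85473890 to 85477273, plus strand), listed above, had a slope of -1.58 ± 0.17 (adjusted p = 0.0254). Egr1, a zinc finger transcription factor, stood at 228, 87.3, 39.3, 13.5, 33.8 and 18.2 CPM (slope -1.23 ± 0.12, adjusted p = 0.0254). Btg2 (chromosome 1, 134075170 to 134079120, minus strand), which slows cell division, stood at 242, 170.0, 48.2, 30.4, 38.1 and 36.5 CPM (slope -1.09 ± 0.10, adjusted p = 0.0254). Cyr61 (chromosome 3, 145646976 to 145649981, minus strand) had a slope of -1.21 ± 0.16 (adjusted p = 0.0486). In all 4 genes 1369-2ear was highest and 1369-2 second.

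Of 17 early response genes found in the table, 14 were kept and all 14 had a negative slope on Akr1b7 and a positive one on Nkd1, with medians of -0.672 and 1.33. With Akr1b7, 6 fell at 0.05 and 9 at 0.1, against 0.344% and 4.64% of all genes. These 6 include Dusp1, a phosphatase that switches off MAP kinases (27.5 to 94.6 CPM, slope -0.59 ± 0.09), and Zfp36, which destabilizes short-lived mRNAs (15.6 to 43.9 CPM, slope -0.49 ± 0.07). With Nkd1 1 rose at 0.05, which is Cyr61, and 10 at 0.1, against 0.0585% and 3.83% of all genes. Junb, another AP-1 subunit, stood at 185, 322, 52.5, 27.8, 42.5 and 17.9 CPM, with a slope of 2.29 ± 0.40 on Nkd1 (adjusted p = 0.0583). The summed level of the 17 genes was 412.4 CPM in 1369-8, 412.9 in 1369-3, 692.3 in 1369-4, 1554 in 1387-8, 1739 in 1369-2ear and 2849 in 1369-2.

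Among the other falling genes, Cd55, which shields cells from complement, stood at 47.1, 24.8, 14.1, 14.1, 14.5 and 9.39 CPM (slope -0.70 ± 0.07, adjusted p = 0.0254). Rasd1, a Ras-like protein induced by glucocorticoids, ranged over 10.4 to 57.4 CPM (slope -0.75), the peptide transporter Slc15a2 over 2.61 to 19.6 CPM (slope -1.03) and Ahrr, a repressor of the aryl hydrocarbon receptor, over 2.69 to 16.4 CPM (slope -0.81). Sbspon, Fam198a, Fbxo44 and Zkscan16 completed the 12 steepest, at slopes of -0.85, -0.73, -0.73 and -0.71, and an opposite transcript overlaps 72.8% of Sbspon exons. From the gene lists, the zG calcium channel Cacna1d (slope -0.44) and the Wnt genes Nfatc4 (-0.58) and Dact1 (-0.41) were also called, each at an adjusted p of 0.0486. The receptor tyrosine kinase Mst1r fell with a slope of -0.68 ± 0.10.

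Genes that rose with Akr1b7 included Scarb1, Mrap, Prkar2b, Hao2 and Srd5a2. Scarb1, the receptor that brings HDL cholesterol into steroidogenic cells, stood at 673, 1767, 2384, 4415, 3361 and 3929 CPM (slope 0.85 ± 0.12, adjusted p = 0.0486). Mrap, which carries the ACTH receptor to the cell surface, stood at 119, 307, 459.9, 438, 433 and 465 CPM (slope 0.62 ± 0.10, adjusted p = 0.0486). Prkar2b, a regulatory subunit of protein kinase A, stood at 112, 112, 326, 319.8, 309 and 330.4 CPM (slope 0.64 ± 0.10). Hao2, a peroxisomal oxidase, had the rank order of Akr1b7 in all 6 mice, at 224, 229, 609.5, 616, 564 and 618 CPM (slope 0.59 ± 0.09). The steroid 5α-reductase Srd5a2 stood at 25.9, 33.6, 60.0, 67.2, 91.2 and 80.9 CPM (slope 0.60 ± 0.10). In Mrap, Prkar2b and Hao2 the 4 mice with more Akr1b7 were close to each other and 1369-2ear lay far below them, with 1369-2 near it or between.

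The steepest rise was that of Fam132b, the hormone erythroferrone, at 1.08 to 10.2 CPM (slope 1.00 ± 0.16). Tubb6, a β-tubulin, ranged over 50.9 to 215 CPM (slope 0.75), the magnesium transporter Slc41a3 over 19.0 to 84.2 CPM (0.67), Fam129a over 110.2 to 442 CPM (0.67), Rom1 over 23.9 to 89.1 CPM (0.65) and the calcium sensor Ncald over 40.9 to 164 CPM (0.61). 1 further gene of the 12 steepest is a predicted gene and was only counted. The rank order of Akr1b7 was shared by 47 genes (0.344%) in all 6 mice and reversed in 36 (0.263%), and at an adjusted p under 0.1, 481 genes (3.52%) rose and 635 (4.64%) fell.

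Mouse 1369-2ear was the lowest in all 31 rising genes and the highest in all 47 falling genes, and in all 78 it and 1369-2 lay together beyond the other 4. Over those 4 mice alone none was called and 67 of the 78 kept their sign. The slope there was less steep for Fos (-0.42), Btg2 (-0.55), Ahrr (-0.39), Slc15a2 (-0.078) and Zkscan16 (-0.034), and steeper for Egr1 (-2.19), Cyr61 (-1.81), Rasd1 (-1.10) and Cd55 (-1.06). Among rising genes it was 0.93 for Scarb1, but 0.0074 for Srd5a2, 0.09 for Mrap, 0.10 for Prkar2b and 0.16 for Hao2. Of the called genes named here, the slope turned for the falling genes Dact1 (0.06) and Sbspon (0.14) and the rising gene Slc41a3 (-0.02). Of the 78 calls, none was kept without 1369-2ear, 1369-4 or 1369-3, 1 without 1369-2, 3 without 1369-8 and 58 without 1387-8. With total counts as a second covariate 1 of the 78 was kept, and with Nkd1 as a second covariate none, so that with 6 mice a relation to Akr1b7 and one to Nkd1 cannot be told apart. With no scaling factor 60 rose and 602 fell, and the slope of the median gene moved from -0.0115 to -0.104.

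**Figure D3:**
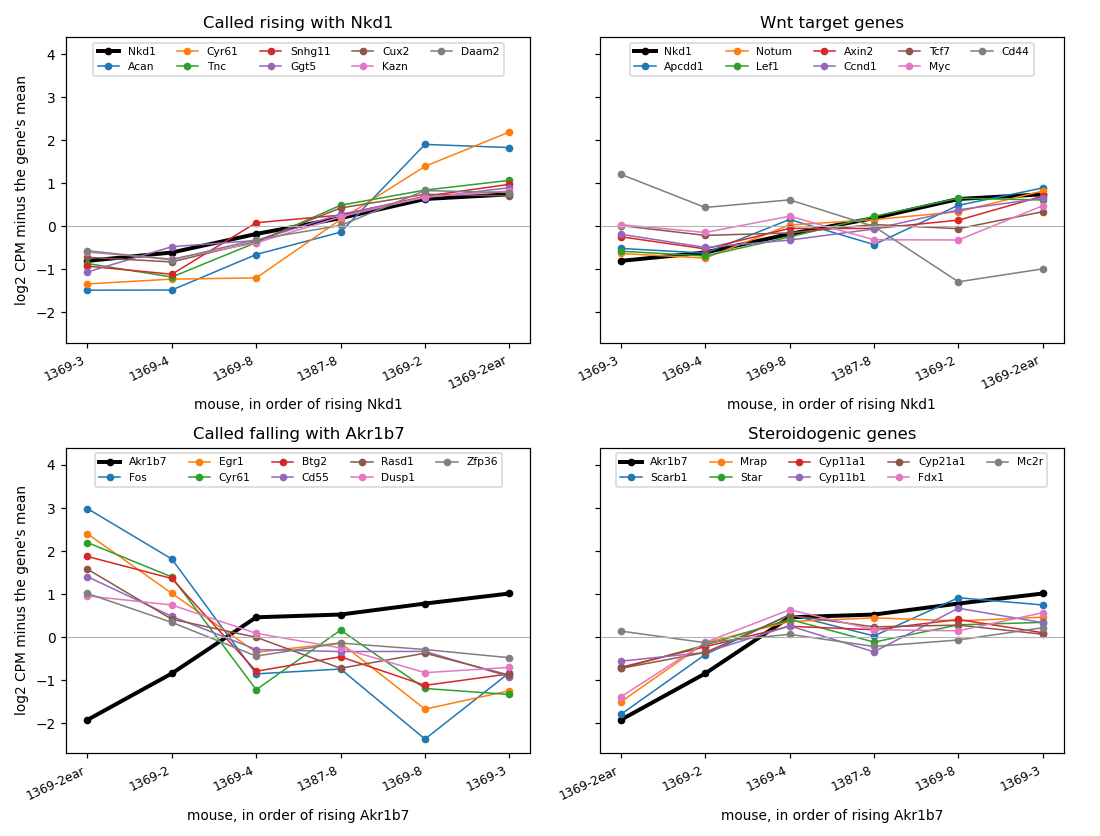
Log2 CPM minus the gene's mean in each of the 6 βCat-GOF mice, with mice in order of rising Nkd1 (upper panels) or rising Akr1b7 (lower panels) and Nkd1 or Akr1b7 as the thick black line. Coloured lines are single genes: 8 called rising with Nkd1, 8 Wnt targets, 8 called falling with Akr1b7, and 8 steroidogenic genes. Cd44 falls where the other Wnt targets rise or stay level, and Fos and Egr1 stand highest in 1369-2ear and 1369-2.

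The genes that make steroids in the zF leaned with Akr1b7 and against Nkd1. All 14 listed genes were kept, 13 had a positive slope on Akr1b7 (median 0.341, against -0.0115 over all genes), and all 14 a negative slope on Nkd1 (median -0.579). Scarb1 and Mrap were called with Akr1b7, and 6 rose at 0.1, against 3.52% of all genes. At an unadjusted p under 0.05, 11 rose with Akr1b7, against 11% of all genes, and DESeq2 called 11 rising, against 5.73%. None was called with Nkd1 by edgeR. With Nkd1, 6 fell at an unadjusted p under 0.05, against 8.94% of all genes, and 6 by DESeq2, against 3.56%. Star, which carries cholesterol into mitochondria, stood at 11820.0, 17204, 18071, 23864, 26071 and 24832 CPM (slope 0.35 ± 0.10, adjusted p = 0.101). Cyp11a1, which cuts the cholesterol side chain, ranged over 4297 to 9289 CPM, and Cyp11b1, which makes corticosterone, over 7192 to 16881 CPM, with slopes of 0.33 and 0.35. Fdx1, the electron carrier for these enzymes, stood at 332, 798, 980.5, 963, 1351 and 1288 CPM (slope 0.58 ± 0.12, adjusted p = 0.0644). The ACTH receptor Mc2r lay within 451 to 610.4 CPM, and Nr5a1, which encodes SF-1, lay at 547 to 1020.3 CPM, lowest in 1369-2ear.

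Several of these slopes rested on 1369-2ear and 1369-2. Over the other 4 mice the slope on Akr1b7 was 0.24 for Star, 0.77 for Cyp11b1 and 0.44 for Nr5a1, but -0.14 for Cyp11a1, -0.63 for the 21-hydroxylase Cyp21a1 and -1.07 for the transporter Abcb1b. A pseudogene matches 67.2% of Cyp21a1, so its counts are uncertain. Of 21 kept genes for making and storing cholesterol, 20 had a positive slope on Akr1b7 (median 0.394) and 20 a negative slope on Nkd1 (median -0.588), and none was called by edgeR (8 rising with Akr1b7 and 5 falling with Nkd1 at an unadjusted p under 0.05, and 6 and 3 by DESeq2). Over all genes 11% rose with Akr1b7 and 8.94% fell with Nkd1 at that unadjusted p, and 5.73% and 3.56% by DESeq2. Dhcr7, the last enzyme of cholesterol synthesis, stood at 317, 626, 659, 1133, 1433 and 1151 CPM (slope on Akr1b7 0.63 ± 0.14, adjusted p = 0.0715). Hmgcs1, at the start of the pathway, ranged over 136 to 649 CPM, and Soat1, which stores cholesterol as esters, over 519 to 775 CPM. The summed level of the list was 2117 CPM in 1369-2ear and between 3801 and 6549 CPM in the other 5. SF-1 letters were in 6.87% of the 364 promoters of genes rising with Akr1b7 at 0.1, and in 3.52% of all kept genes. They were in 4.76% of the 462 promoters of genes falling with Akr1b7 at 0.1. With Nkd1 at 0.1 they were in 4.37% for rising genes and 4.29% for falling genes. TCF/LEF letters were in 12.3% of the 366 promoters of genes rising with Nkd1 at 0.1, and in 12.1% of all kept genes, and these shares were not tested.

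**Figure D4:**
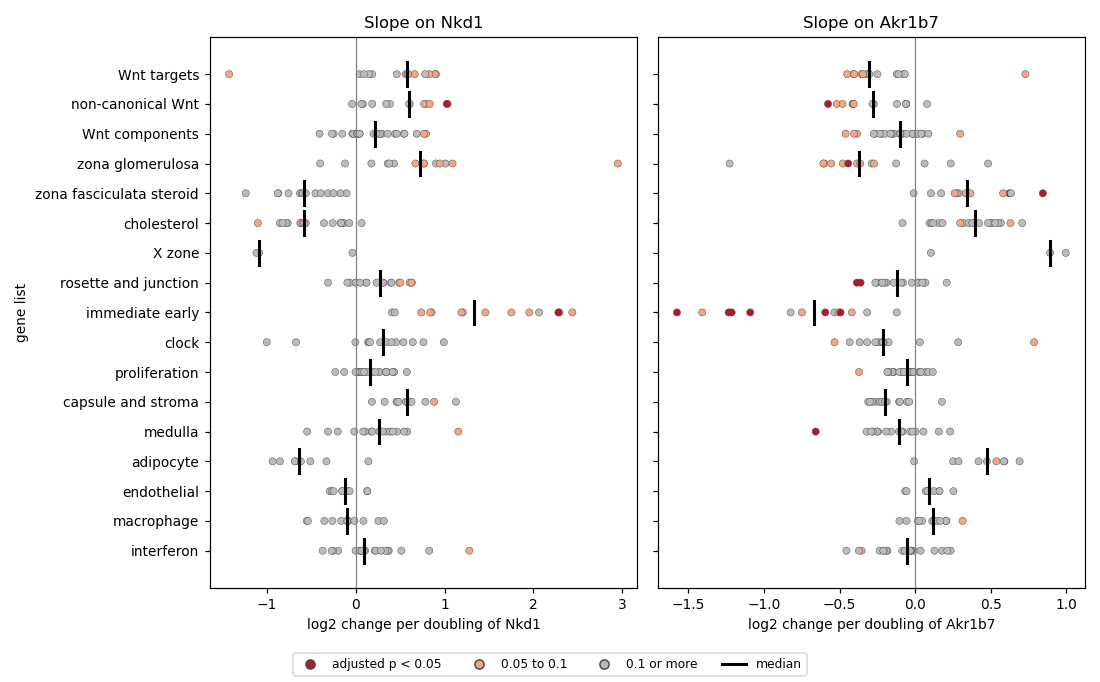
Slope of each kept gene of 17 lists on Nkd1 (left) and Akr1b7 (right), in log2 change per doubling, fitted over the 6 βCat-GOF mice. Each point is a gene, coloured by adjusted p, and the black bar is the median of the list. The immediate early list has the median farthest from 0 on Nkd1 (1.33) and on the negative side of Akr1b7 (-0.672).

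Genes called with both Nkd1 and Akr1b7 were few at 0.05 and many at 0.1. At 0.05 Cyr61 alone was shared, which is 11.1% of the 9 and 1.28% of the 78. At 0.1, 432 genes were shared, 58.3% of the 741 for Nkd1 and 38.7% of the 1116 for Akr1b7, all with opposite signs. Over all genes at 0.1, 3.83% rose and 1.59% fell with Nkd1, and 3.52% rose and 4.64% fell with Akr1b7. Each fit uses the same 6 mice, so the 2 lists are not independent. Nkd1 and Akr1b7 ran opposite to each other (r = -0.849), so a gene fitted closely to both must have opposite signs. The overlap and its signs are therefore no separate result.

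Markers of other cell types varied beside these genes, and their part in the results was not tested. The X zone list summed to 164.6 CPM in 1369-2ear and 1012 CPM in 1369-8, and to between 3306 and 6207 CPM in the other 4, and none of its 3 genes was called with Nkd1 or Akr1b7 by edgeR at 0.05, at an unadjusted p under 0.05 or by DESeq2. Of 14 capsule and stroma genes 13 were kept and all 13 had a positive slope on Nkd1 (median 0.571, with 7 rising at an unadjusted p under 0.05 against 13.8% of all genes, and 3 by DESeq2 against 5.26%), with a summed level of 456.4 CPM in 1369-4, 1002 in 1369-2ear and 1086 in 1387-8. Adipocyte markers summed to 327.6 CPM in 1369-2 and 1158 CPM in 1387-8. On Nkd1 8 of 9 slopes were below 0, against 6461 of all 13675 genes, and on Akr1b7 8 of 9 were above 0. With Akr1b7 3 rose at an unadjusted p under 0.05, against 11% of all genes, and DESeq2 called 2 rising, against 5.73%. None was called by edgeR at 0.05. Medulla markers summed to between 6288 (1387-8) and 11490 CPM (1369-8). MHC class II genes were highest in 1387-8 (855.9 CPM, against 291.7 to 480.9 in the others), and lymphoid markers in 1369-2ear (112.1 CPM) and 1369-2 (97.4 CPM).

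No gene of 4 other programmes was called. The kept genes of the circadian clock (14), of proliferation (22), of the interferon response (20) and of the glucocorticoid response (9) had median slopes on Nkd1 of 0.311, 0.164, 0.0972 and -0.212 in the fit by edgeR, with none under 0.05 for either Nkd1 or Akr1b7. At an unadjusted p under 0.05 with Nkd1 the counts were 4 rising and 1 falling, 3 and 0, 5 and 1, and 0 and 2, against 13.8% of all genes rising and 8.94% falling, and DESeq2 called 0 and 1, 0 and 0, 2 and 0, and 0 and 1. With Akr1b7 the counts in the same order were 1 rising and 3 falling, 0 and 1, 2 and 4, and 0 and 0 at an unadjusted p under 0.05, and 1 and 2, 0 and 1, 1 and 2, and 0 and 0 by DESeq2. Over all genes, 11% rose and 13.2% fell with Akr1b7 at that unadjusted p. DESeq2 called 5.26% of all genes rising and 3.56% falling with Nkd1, and 5.73% and 4.95% with Akr1b7. Endothelial and macrophage markers had median slopes of -0.122 and -0.0991, which became 0.0286 and 0.0421 without a scaling factor. Mitochondrially encoded genes held 40030 CPM in 1369-8 and 64890 in 1369-3.

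**Figure D5:**
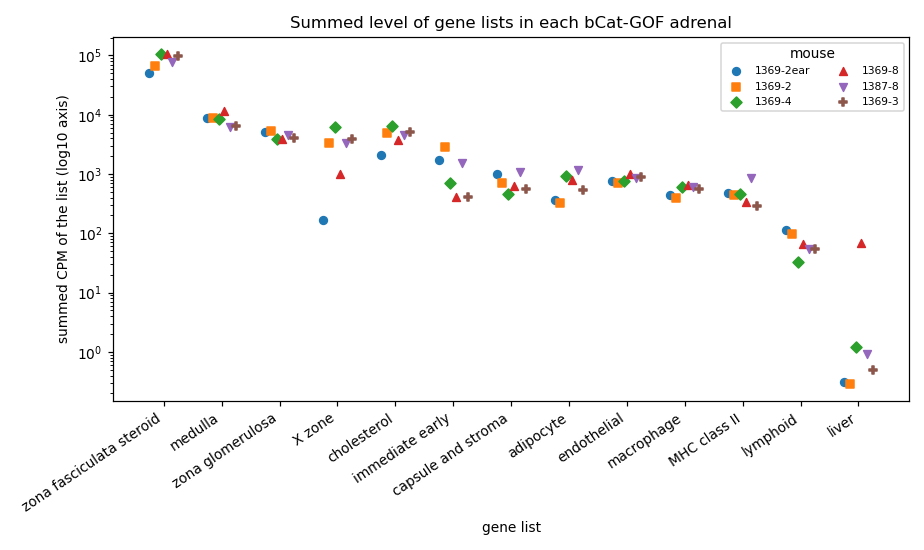
Summed CPM of 13 gene lists in each of the 6 βCat-GOF mice, on a log10 axis, with 1 marker shape per mouse. The X zone list is lowest in 1369-2ear (164.6 CPM), and the liver list is high in 1369-8 alone (69.43 CPM).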

How the data were processed

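RNA of whole adrenals was sequenced. The authors trimmed reads with cutadapt, aligned them with STAR to mm10 and counted them per gene with featureCounts 1.4.4. Strand setting and annotation release are not given in the sources used here. The deposited table holds raw counts per gene for 12 libraries, of which the 6 βCat-GOF columns were used (0 columns lacked a sample). A second deposited table of normalised signal values, in which the authors divided each library's counts by 1 factor (their methods name DESeq2 1.6.3), was not used. Groups came from the labels.

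Counts were scaled with TMM. CPM used no prior count, and log2 CPM a prior count of 2. Each gene with 10 or more counts in all 6 libraries was regressed on the centred log2 CPM of Nkd1 or Akr1b7 (edgeR 4.0.16 quasi-likelihood test, R 4.3.3, Benjamini-Hochberg). Before that, the code for Nkd1 was tested on simulated data. It called 74 of 100 genes given a slope of size 1 and 99 of 100 given one of size 2. It also called 18 genes that were given no slope. P-values measure the spread between these mice. Alternatives were DESeq2 1.42.0 (size factors and Wald test), other filters, covariates, related genes in place of Nkd1 or Akr1b7, and leaving out mice. An adjusted p of 0.1, library totals alone and leaving out both 1369-2ear and 1369-2 were chosen after seeing the data.

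Named genes were Nkd1 and Akr1b7, the 20 most variable, the 12 steepest called genes per direction (filled by the smallest p where fewer were called), the Wnt target, zG, zF and X zone lists, and up to 4 genes of other lists. Predicted genes could be only counted, and 1 result is not reported here. The members and gene lists were chosen with earlier results of these data known. Positions are from GENCODE M21 (GRCm38) and promoters from RefSeq. Shared sequence was searched with BLAST 2.17.0, and figures drawn with matplotlib 3.10.9.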

Additional observations from a re-analysis of the deposited data

Results flagged for a closer look

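Of 109 genes looked at, 9 had 1 mouse far from the other 5 by Dixon's criterion for 6 samples, and chance flags about 1 in 20. Over all 13676 kept genes 798 (5.84%) had a far mouse, which was 1369-2ear for 104 and 1369-8 for 452. Many of the 109 were named for a high SD or a steep slope, where 1369-2ear was often the extreme mouse. So the 109 are not a neutral sample of genes. In 6 of the 9 the far mouse was 1369-2ear, at the low end each time. Its level was 331.81 CPM for Fdx1, 118.7 CPM for Mrap, 546.67 CPM for Nr5a1, 3.5899 CPM for Sp5, 5.8674 CPM for Spp1 and 1.158 CPM for Kng2. Mouse 1387-8 was low for Ctnnb1 (944.13 CPM) and for Tpm3-rs7 (1.5488 CPM). Mouse 1369-4 was high for n-R5-8s1 (580.17 CPM). The cause was not tested.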

How the results depend on the processing

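The counts of called genes moved with nearly every choice, and the cause was not tested. With Nkd1, 8 rose and 1 fell. The counts became 0 and 0 with DESeq2's size factors, with Akr1b7 as a second covariate (438 and 202 at an unadjusted p under 0.05), with Axin2 in place of Nkd1 (1625 and 1132) and without both 1369-2ear and 1369-2 (335 and 126). They became 719 and 487 with DESeq2's Wald test, 104 and 29 with a minimum of 100 counts, 1128 and 74 with library totals alone, 524 and 217 at an adjusted p under 0.1, and 72 and 73 by rank order. Without a filter 3 fell, as with total counts as a covariate. Leaving out 1 mouse gave 0 to 131 rising and 0 to 86 falling, with both high values without 1369-8. All 9 called genes kept their sign under each of the alternatives that tested them, and the minimum of 100 counts left out 2.

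With Akr1b7, 31 rose and 47 fell. The counts became 783 and 677 with DESeq2's Wald test, 59 and 103 without a filter, 51 and 121 with a minimum of 100 counts, 60 and 602 with library totals alone, and 481 and 635 at an adjusted p under 0.1. They became 0 and 0 with Nkd1 as a second covariate (358 and 292 at an unadjusted p under 0.05) and without both 1369-2ear and 1369-2 (72 and 243), and 0 and 2 with total counts as a covariate. With Cyp11b1 in place of Akr1b7, 75 rose and 68 fell, of which 6 were among the 78. By rank order 47 rose and 36 fell. Leaving out 1 mouse gave 0 to 58 rising and 0 to 55 falling, the highest without 1387-8.

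Of the 20 most variable genes, 6 stayed with a minimum of 100 counts, 3 without a filter, and 11 to 19 when 1 mouse was left out. The first component held 38.2% to 53.1% of variance when 1 mouse was left out. For Nkd1 against Akr1b7, r ran from -0.919 to -0.818 with 1 mouse left out.

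Slopes on Nkd1 that turned negative with Akr1b7 as a covariate were those of Fos (-0.27), Tcf7 (-0.012), Rnf43 (-0.31), Myc (-0.34), Sp5 (-0.10), Dact1 (-0.16) and Agtr1b (-0.34). With 1 mouse left out, slopes ran from -0.21 to 0.16 for Rnf43 and from -0.25 to 0.24 for Myc, and the negative values were those without 1369-2ear. Without both 1369-2ear and 1369-2, Fos (-0.16), Rnf43 (-0.16), Myc (-0.19), Dact1 (-0.14) and Agtr1b (-0.26) turned on Nkd1, and Dact1 (0.061), Sbspon (0.14), Slc41a3 (-0.021), Cyp11a1 (-0.14), Cyp21a1 (-0.63) and Abcb1b (-1.07) on Akr1b7.

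Depth limits genes near 10 counts, where 3 counts are worth 0.12 to 0.222 CPM. No paired analysis was possible because a single group was described and no groups were compared.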
